A study of Drosophila melanogaster with 8 samples.

Results

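The genes described here encode the subunits of the proteasome of Drosophila melanogaster, and the measurement is where CDK9, the kinase subunit of P-TEFb, was found on chromatin at these genes in Kc167 cells, with and without depletion of Argonaute2 (AGO2). Members were all genes of the dm6 annotation whose symbol begins with Prosalpha, with Prosbeta, or with Rpn or Rpt followed by a digit. This rule found 48 of 18277 genes, and it used no measured value. Of these, 32 are called the widely expressed subunits here (7 Prosalpha, 7 Prosbeta, 12 Rpn and 6 Rpt genes). The other 16 are paralogs whose symbol has a T or an R after the subunit number (5 Prosalpha, 6 Prosbeta, 2 Rpn and 3 Rpt genes). Many such copies are known from fly genetics as used in the testis, and the 16 are called testis paralogs here. Both names rest on the symbol alone, and expression was not checked for each gene. Kc167 is a female line of embryonic hemocyte origin. Chromatin immunoprecipitation sequencing (ChIP-seq) for CDK9 was done 3 days after transfection with no RNA (mock, genotype given as control) or with RNA against AGO2 (siAGO2), with 2 libraries in each group and an input for each, and 1 list of called peaks per CDK9 library was analysed. Both groups are the same cell line and neither carries an allele. Whether the libraries came from separate cultures is not stated, so the spread between them may be technical, and the depletion of AGO2 itself cannot be checked from peak lists.

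The proteasome degrades proteins marked with ubiquitin. Its core is a barrel of stacked rings, in which the outer rings are built from the alpha subunits and gate the entry, and the inner rings from the beta subunits, of which Prosbeta1, Prosbeta2 and Prosbeta5 carry the proteolytic sites. A cap sits on the barrel, where the Rpt subunits form a ring of ATPases that unfolds the substrate. Rpn1, Rpn2, Rpn10 and Rpn13 complete the base, and of these Rpn1, Rpn10 and Rpn13 receive ubiquitin. The remaining Rpn subunits form the lid, where Rpn11 removes the ubiquitin chain. All widely expressed subunits are needed in stoichiometric amounts in nearly every cell. CDK9 phosphorylates RNA polymerase II (Pol II) and the factors that hold it paused just downstream of the start, and it is therefore found mostly near the starts of transcribed genes. The transcription factor Cnc, which pairs with Maf-S, is known to raise proteasome genes in flies, and DREF, which binds the DNA replication-related element (DRE), is known to act at many widely expressed fly genes.

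Promoters of the widely expressed subunits and of the testis paralogs held different shares of known motifs, and a few are shown so that the motifs can be seen beside the CDK9 values. Promoters were taken from 250 bp before to 50 bp after the start of the reference transcript and searched on both strands for 5 motifs, namely DRE (TATCGATA, which reads the same on both strands), the core of motif 1 (GGTCACAC), the GAGA motif (GAGAG), the core of the antioxidant response element bound by Cnc and Maf-S (ARE, TGACNNNGC) and the TATA box (here the letters TATAAA). The first 3 of the following were chosen by the rule on printed promoters, and the other 3, which hold a DRE before the start, were added after the values were seen. Each runs 5′ to 3′ on the strand of the gene from 100 bp before the start to the first 10 transcribed bases, except the stretch between Prosbeta2R2 and CG1116, which is the whole gap between their starts on the strand of Prosbeta2R2. Capitals mark matches to these motifs.
Rpn1 (dm6, chr3L:19914951-19915060, plus strand): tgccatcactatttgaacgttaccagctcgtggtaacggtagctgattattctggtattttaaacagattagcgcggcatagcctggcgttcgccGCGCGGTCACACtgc
Prosbeta2R2/CG1116 (dm6, chr3R:5219529-5219656, minus strand): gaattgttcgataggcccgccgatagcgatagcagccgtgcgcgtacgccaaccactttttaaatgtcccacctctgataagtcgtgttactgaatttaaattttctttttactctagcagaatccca
Prosalpha6T (dm6, chr2L:13231939-13232048, plus strand): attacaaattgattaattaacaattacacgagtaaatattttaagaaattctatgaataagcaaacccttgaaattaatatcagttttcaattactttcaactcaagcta
Prosalpha6 (dm6, chr2L:10221251-10221360, plus strand): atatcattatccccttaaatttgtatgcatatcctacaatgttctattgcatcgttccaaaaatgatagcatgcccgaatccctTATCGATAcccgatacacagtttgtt
Prosbeta2 (dm6, chr3L:14999851-14999960, plus strand): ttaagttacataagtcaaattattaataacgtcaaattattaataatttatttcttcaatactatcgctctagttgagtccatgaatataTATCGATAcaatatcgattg
Prosbeta6 (dm6, chr3L:16610409-16610518, minus strand): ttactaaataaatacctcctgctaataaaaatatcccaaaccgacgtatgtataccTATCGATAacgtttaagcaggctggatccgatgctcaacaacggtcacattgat
In Rpn1 the motif 1 core lies across the start and the ARE core on the other strand overlaps it, so the capitals join 2 matches. Prosalpha6, an outer ring subunit, and its testis paralog Prosalpha6T are shown together because a DRE ends 9 bp before the start of the first and neither a DRE nor any other of the motifs lies in the stretch printed for the second. No match lies in the gap between Prosbeta2R2 and CG1116.

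A DRE was present in 11 of the 32 promoters of widely expressed subunits (34.4%), in 1 of the 16 paralog promoters (6.25%) and in 8.94% of 13967 protein-coding promoters of the same length. The 11 genes were Prosalpha3, Prosalpha5, Prosalpha6, Prosbeta1, Prosbeta2, Prosbeta6, Rpn3, Rpn7, Rpn9, Rpn12 and Rpt5, and the paralog was Rpt3R. The core of motif 1, known as a site of the factor M1BP, was present in 18.8% of widely expressed subunits and 0% of the paralogs, against 7.52% of protein-coding promoters. The GAGA motif went the other way, with matches in 3 of 32 widely expressed promoters (9.38%: Prosbeta5, Rpn7 and Rpn13), 6 of 16 paralog promoters (37.5%) and 30.2% of protein-coding promoters. Among the 1155 protein-coding genes with a CDK9 peak in all 4 libraries, 12.4% held a DRE and 42.3% the GAGA motif. Shares of the ARE core were 15.6%, 6.25% and 8.47% for the widely expressed, paralog and protein-coding promoters, and those of TATA were 40.6%, 31.3% and 45.3%. Of the 11 DRE holders, 8 had a CDK9 peak by the rule used below and 4 had one nearest to their own start. For all 32 widely expressed subunits these counts were 24 and 16. A DRE was thus found with and without a peak. A match is a description of letters, and no test was made on these shares. A promoter window can also hold the start of a divergent neighbour, so a match need not belong to the subunit gene. Such a start lay within 1 kb upstream of 62.5% of the widely expressed subunits. For the paralogs the share was 25%, and for protein-coding genes 34.0%.

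**Figure D1:**
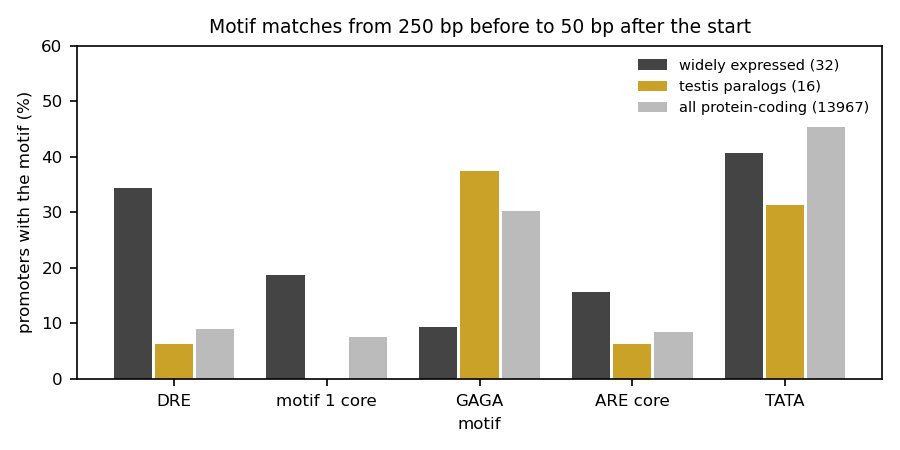
Share of promoters (%, vertical axis) with at least 1 match to each of 5 motifs from 250 bp before to 50 bp after the start, for widely expressed proteasome subunits, testis paralogs and all protein-coding genes. DRE stands at 34.4% in the widely expressed subunits and 8.94% in all protein-coding genes, and GAGA at 9.38% and 30.2%.

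The lists held 3103 (mock replicate 1), 3804 (mock replicate 2), 1707 (siAGO2 replicate 1) and 2295 (siAGO2 replicate 2) CDK9 peaks. The lists also differ in the lowest background, which serves as a measure of depth but also depends on MACS2 settings that are not known. In reads over a position it was 2.29 and 1.21 in the mock and 0.814 and 0.864 in the siAGO2 libraries, and the median peak had between 14 and 21 reads at its summit. The more peaks a list holds, the more genes carry one, so each count below stands beside the share of all protein-coding genes. Of the 12 hemocyte genes checked, srp and ush, which encode transcription factors of the lineage, had a peak in all 4 libraries, and 5 (Hml, NimC1, eater, crq and Ppn) had none. The germ line and testis genes bam and topi had none. Among genes of other tissues, Mef2 of muscle had a peak in all 4 libraries, Mhc of muscle and elav of neurons in 1, and nSyb of neurons in 2.

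A gene was taken to have a CDK9 peak when a peak overlapped the 1500 bp on either side of any of its starts or its body. By this rule the widely expressed subunits with a peak numbered 9 and 20 of 32 in mock cells (28.1% and 62.5%, replicates 1 and 2) and 3 and 8 after depletion of AGO2 (9.38% and 25.0%). The shares of all 13968 protein-coding genes in the same order were 21.0%, 26.1%, 11.8% and 16.6%. Mock replicate 2 therefore stood well above the background, mock replicate 1 and siAGO2 replicate 2 somewhat above it, and siAGO2 replicate 1 below it. The subunit genes are short, with a median length of 1390 bp (914 to 4500 bp) against 2164.5 bp for protein-coding genes, so their windows offer less sequence to a peak. The testis paralogs, with a median length of 1282 bp, carried a peak in 1, 1, 0 and 1 of 16 genes, and it was Prosbeta2R2 each time.

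Many of these peaks had their summit nearer to the start of a neighbour. Of the 32 widely expressed subunits, 20 (62.5%) had the start of a protein-coding gene on the opposite strand within 1 kb upstream, against 34.0% of all protein-coding genes and 4 of 16 paralogs. When a peak was given only to the gene with the start nearest to its summit, 5 and 14 widely expressed subunits had one in mock cells (15.6% and 43.8%) and 3 and 5 in siAGO2 cells (9.38% and 15.6%), against 13.3%, 17.0%, 7.70% and 10.5% of protein-coding genes. No paralog had one. Apart from mock replicate 2, these shares lay close to those of all protein-coding genes. The nearest-start rule lowered the protein-coding shares too, from 21.0%, 26.1%, 11.8% and 16.6% by the wider rule. Over the 4 libraries, 24 of the 32 widely expressed subunits had a peak by the wider rule and 16 by the nearest start. This leaves 8 with peaks nearer, or as near, to a neighbour, and 8 with none. Of 13968 protein-coding genes, 4763 had a peak by the wider rule, and 3022 had one nearest to, and within 1500 bp of, their own start.

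**Figure D2:**
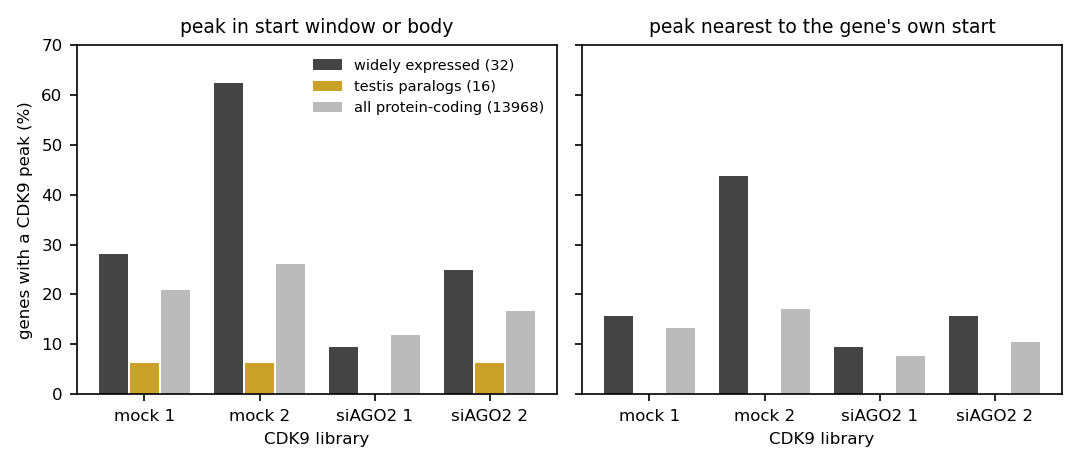
Share of genes with a CDK9 peak (%, vertical axis) in each of the 4 libraries, by overlap with the start window or body (left) and by the nearest start (right), for widely expressed subunits, testis paralogs and all protein-coding genes. Mock replicate 2 stands out with 62.5% and 43.8% of widely expressed subunits, and the paralogs have at most 6.25% (left) and none (right).

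Whether AGO2 depletion changed the number of proteasome genes with CDK9 was asked with the counts per library. A mean of 14.5 ± 7.78 widely expressed subunits (SD, n = 2) had a peak in mock cells and 5.5 ± 3.54 (SD, n = 2) in siAGO2 cells. The counts did not overlap, since the lowest mock count was 9 and the highest siAGO2 count 8, and the ratio of the means was 0.379. With 2 against 2 libraries the two-sided exact permutation test gave p = 0.333, which is the smallest it can give, so the design cannot pass the threshold of 0.05. The counts touched or overlapped, with p = 0.667 in the same exact test, when the summit had to lie inside the window or body (8 and 20 against 3 and 8), when gene bodies alone were used (5 and 15 against 3 and 5) and when the nearest start was used (5 and 14 against 3 and 5). The shares of all protein-coding genes given above did not overlap between the groups either. The count of all protein-coding genes with a peak fell in the same comparison, with a ratio of 0.603. When the same number of peaks was taken from the top of each list, the subunit counts overlapped, at 4, 6, 3 and 5, with a ratio of 0.80 against 0.959 for protein-coding genes. The lower count in siAGO2 cells thus came with shorter lists. Without mock replicate 2 the subunit ratio rose to 0.611, without siAGO2 replicate 2 it fell to 0.207, and without mock replicate 1 and siAGO2 replicate 1 it was 0.275 and 0.552. The ratio for protein-coding genes under the same omissions moved the same way, to 0.675, 0.501, 0.544 and 0.704.

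**Figure D3:**
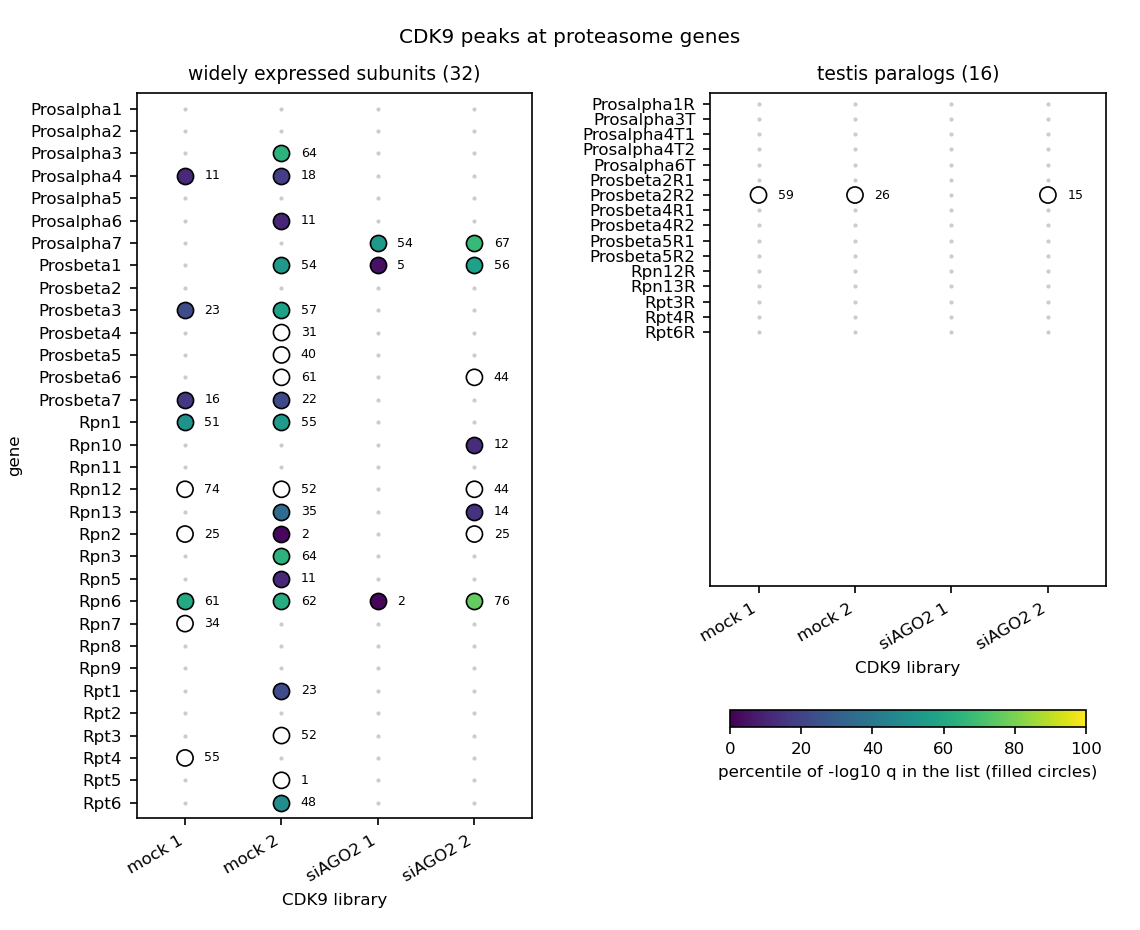
Each of the 48 proteasome genes (rows) in each CDK9 library (columns). A filled circle is a peak nearest to a start of the gene, coloured by the percentile (0 to 100) of its −log10 q in its list, an open circle is a peak nearer, or as near, to a neighbour's start, a dot is no peak, and the number is the percentile of the strongest such peak. Rpn6 is the only row filled in all 4 columns, and among the paralogs Prosbeta2R2 alone has circles, all open.

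The genes that carried CDK9 changed from library to library. Of the widely expressed subunits, 13 had a peak in 1 library, 7 in 2, 3 in 3 and 1 in all 4, and 10 had it in mock replicate 2 alone. Of the 4763 protein-coding genes with a peak in any library, 24.3% had it in all 4. Their shares with a peak in 1 library, or in mock replicate 2 alone, are not given. These counts are therefore not read as particular to the subunits. The members with a peak in any library were 24 widely expressed subunits and 1 paralog. Of these, 4 had a peak in both mock and neither siAGO2 library (Prosalpha4, Prosbeta3, Prosbeta7 and Rpn1). Prosalpha7 alone had one in both siAGO2 and neither mock library. Of the 4763 protein-coding genes, 9.68% and 0.420% showed these patterns in the full lists of all 4 libraries. Their shares under the settings that follow are not given. With lists of equal length, 0 members had the mock pattern and 2 the siAGO2 pattern, and without mock replicate 1 the mock pattern, then resting on replicate 2 alone, took in 14. Merging overlapping peaks of the 4 lists gave 36 regions at the members, of which 24 were called in 1 library, 5 in at least 3 and 1 in all 4, while 56.6% of all 5531 regions were called in 1 library and 18.5% in all 4.

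The peaks at proteasome genes were of modest height. The 50 peaks at widely expressed subunits rested on 10 to 24 reads at the summit over a background of 1.34 to 7.11 reads, with a fold over background of 2.70 to 6.59. The median percentile of the strongest peak of each gene, by −log10 q within its list, was 44.0 and 50.1 in mock lists and 4.60 and 43.8 in siAGO2 lists, against 53.8, 55.0, 53.5 and 52.1 for protein-coding genes. No peak at any member reached above the 75.9th percentile of its list.

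Of the lid subunits, Rpn6, which is known as a clamp that holds the lid to the core, was the only member with a peak in all 4 libraries. Its gene (FBgn0028689, chr2R:14750166-14752910, minus strand, dm6) has 2 annotated starts, and the region shared by the 4 peaks (chr2R:14752179-14752514) covers the second, which lies 639 bp downstream of the first. The start of ave, on the opposite strand, lies 7 bp beyond the end of this region and 250 bp upstream of the second start of Rpn6, and all summits at Rpn6 were nearer to the latter. Neither Rpn6 nor Prosalpha7 is shown by sequence. The summit fold was 4.17 and 4.98 in mock cells and 3.31 and 6.59 in siAGO2 cells (replicates 1 and 2 of each), so the siAGO2 libraries held both the lowest and the highest value and the groups overlapped. These folds came from 20, 19, 10 and 18 reads over a background of 4.03, 3.01, 2.32 and 1.88, in the same order. At this depth the exact Poisson interval (95%, counting error only) of the lowest count ran from 4.80 to 18.4 reads and that of the highest from 12.2 to 30.9. The summits lay 77 bp before, 3 bp after, 26 bp before and 26 bp after the second start. The peak ranked at percentiles 60.6 and 62.5 in the mock lists, and at 1.90 and 75.9 in the siAGO2 lists. A further peak in the gene body, 327 and 322 bp past the second start, was called in mock replicate 2 (fold 2.90) and siAGO2 replicate 2 (fold 4.86).

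To ask whether the height at Rpn6 differed between groups, limma was fitted to normal scores of the within-list ranks, over the 1022 regions that each of the 4 lists holds. At an adjusted p under 0.05, 0 of 1022 regions (0%) were called, with 66 under an unadjusted p of 0.05. The Rpn6 region differed by −0.183 ± 0.730 (SE) in normal scores, siAGO2 minus mock, with an adjusted p of 0.948 by limma, and at this standard error a difference of that size, or several times larger, could not be told from 0. Its direction turned with 1 library: without siAGO2 replicate 1 the difference was 0.956, and without siAGO2 replicate 2 it was −1.322.

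Of the outer ring, Prosalpha3, Prosalpha4, Prosalpha6 and Prosalpha7 had a peak nearest to their own start in at least 1 library, and Prosalpha1, Prosalpha2 and Prosalpha5 had none in any. Prosalpha7 (FBgn0023175, chr2R:9846636-9847836, minus strand) was the only member called in both siAGO2 and neither mock library. Its summit lay 186 bp past the start in an intron in siAGO2 replicate 1 (fold 5.29, 16 reads, percentile 54.0) and 8 bp past the start in replicate 2 (fold 5.90, 16 reads, percentile 67.3). These peaks overlapped, and replicate 2 held a further peak at 479 bp (fold 3.92). Both summits of the shared region ranked near or above the middle of their lists. Prosalpha4 (FBgn0004066, chrX:16276270-16277587, plus strand) showed the opposite pattern, with overlapping peaks 385 bp past the start in mock replicate 1 (fold 2.70, 20 reads, percentile 11.5) and 387 bp in replicate 2 (fold 3.42, 12 reads, percentile 9.57), both low in their lists. Replicate 2 held a further peak at 852 bp (fold 3.55). Prosalpha3 and Prosalpha6 had a peak of their own in mock replicate 2 alone, 275 and 441 bp past the start.

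Prosalpha1 could not be measured. Its gene and that of its paralog Prosalpha1R lie 1735 bp apart and are alike in 1359 of 1376 bases (98.8%), and all 50-base stretches of both bodies, the length of the reads, occur elsewhere in the genome. The authors removed reads of low mapping quality, which takes out reads with several equal placements, so the absence of peaks at these genes says nothing about CDK9. In the bodies of the other members 0% of such stretches were repeated.

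Of the inner ring, Prosbeta1, which carries the caspase-like site, had peaks in 3 libraries, all inside the gene. They lay 378 bp past the start in mock replicate 2 (fold 4.49, percentile 53.6), 193 bp in siAGO2 replicate 1 (fold 3.66, percentile 4.60) and 349 bp in siAGO2 replicate 2 (fold 5.49, percentile 56.5), and formed a single merged region. Prosbeta3 and Prosbeta7, structural subunits of the ring, were called in both mock libraries but at places that did not overlap. The summits at Prosbeta3 (chr3R:9005313-9006226, minus strand) lay 279 bp past the start in replicate 1 (fold 2.84, percentile 22.7) and 565 bp in replicate 2 (fold 4.73, percentile 57.0). Those at Prosbeta7 (chr3R:5357012-5358364, minus strand) lay 592 bp (fold 2.96, percentile 16.0) and 301 bp (fold 3.96, percentile 22.2) past the nearest start. Of the 4 genes called in both mock libraries only, Rpn1 and Prosalpha4 were thus the ones called at the same place. The remaining inner ring genes with a peak, Prosbeta4, Prosbeta5 and Prosbeta6, had it nearer to the starts of Nubp1, Lsm10, and CG4098 or Su(P), and Prosbeta2, whose promoter with a DRE is printed above, had none.

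Of the base, Rpn1, a scaffold that receives ubiquitin-bearing shuttles, had overlapping peaks in both mock libraries and none in the siAGO2 libraries. Its gene (FBgn0028695, chr3L:19915051-19918160, plus strand) carried the summit 75 bp past the start in mock replicate 1 (fold 3.62, 21 reads over 5.08) and 189 bp in replicate 2 (fold 4.74, 17 reads over 2.80), just downstream of the printed promoter. These peaks stood at percentiles 51.0 and 54.6, higher in their lists than those of Prosalpha4. Rpn2, the other scaffold of the base, had peaks in 3 libraries near the start of its divergent neighbour Slbp, 258 bp away, and a weak one of its own 516 bp past the start in mock replicate 2 (fold 2.72, percentile 2.14). The ubiquitin receptors differed: Rpn13 had peaks 244 bp past the nearest start in mock replicate 2 and 399 bp in siAGO2 replicate 2, and Rpn10 had a single one in siAGO2 replicate 2, 899 bp past the start (fold 3.87, percentile 12.2). Of the 6 ATPases, Rpt1 and Rpt6 had a peak of their own, both in mock replicate 2, 399 bp past and 57 bp before the start. Rpt3 and Rpt4 had theirs nearer to CG11122 and mldr, Rpt2 had none, and the summit at Rpt5 fell 21 bp from both its start and that of RanBP3 (fold 2.70, percentile 0.565).

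Of the lid beside Rpn6, Rpn3 and Rpn5 had a peak of their own in mock replicate 2, 387 and 485 bp past the nearest start. Rpn12 had peaks in 3 libraries with folds of 5.38 (mock replicate 1), 5.11 (mock replicate 2) and 5.13 (siAGO2 replicate 2), but their summits lay close to the start of CR43727, at −39 to −26 bp, and at −1430 to −1417 bp from the start of Rpn12. Rpn7 had a peak in mock replicate 1 whose summit was nearer to AP-2mu. No peak was called at Rpn8, Rpn9 or at Rpn11, the deubiquitinase of the lid. A gene without a peak is one with none past the q threshold of the lists, which does not show that CDK9 was absent.

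**Figure D4:**
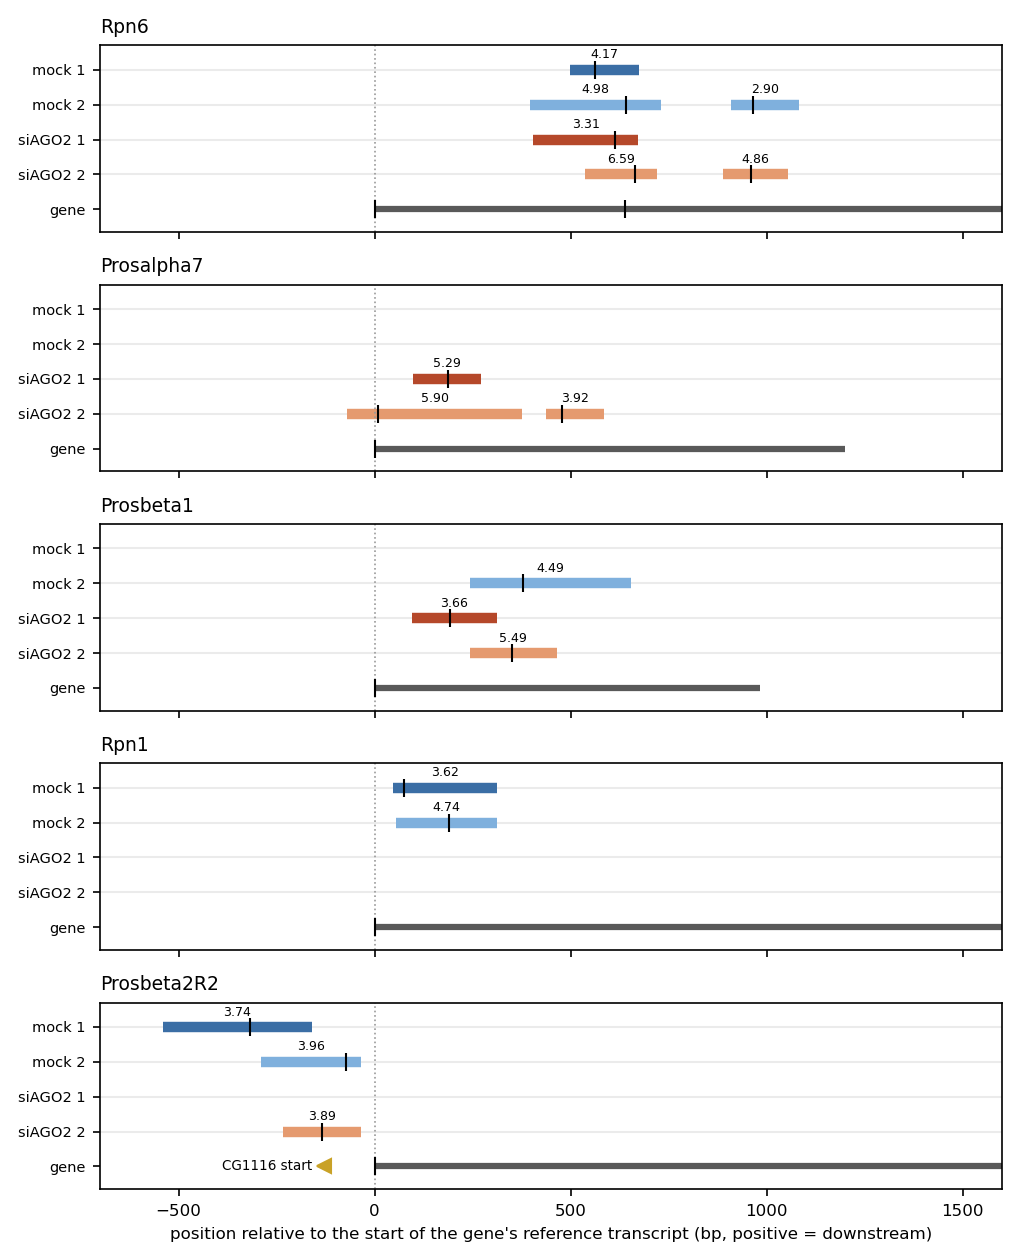
Called CDK9 peaks (bars) with their summits (black ticks) and fold over background (numbers) at Rpn6, Prosalpha7, Prosbeta1, Rpn1 and Prosbeta2R2, by library, against distance in bp from the start of the reference transcript. Grey lines are the genes with their annotated starts as ticks, and the triangle is the start of CG1116. The Rpn6 peaks of all 4 libraries sit on the second start, 639 bp downstream of the first, and those at Prosbeta2R2 lie upstream of it, around the start of CG1116.

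Prosbeta2R2 (chr3R:5217751-5219528, minus strand), a testis paralog of the trypsin-like subunit Prosbeta2, was the only paralog with a peak, and that peak was nearer to its neighbour. The starts of Prosbeta2R2 and CG1116, which is transcribed away from it, leave a gap of 128 bp, the one printed above, which both promoters share. The summit lay 189 bp past the start of CG1116 in mock replicate 1 (fold 3.74, percentile 58.8), 56 bp before it in mock replicate 2 (fold 3.96, percentile 26.1) and 6 bp past it in siAGO2 replicate 2 (fold 3.89, percentile 15.4), and no summit lay inside Prosbeta2R2. Of the other 15 paralogs none had a peak in any library, and of these Prosalpha1R could not be measured, as noted for Prosalpha1. These include Prosalpha6T, whose widely expressed counterpart Prosalpha6 had a peak in mock replicate 2, and Rpt3R, the paralog that holds a DRE.

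Where CDK9 was called nearest to the start of a subunit gene itself, most summits lay downstream of it. Of 31 such peaks at 16 genes, of which Rpn6 gave 6 and mock replicate 2 gave 16, 25 had the summit in an exon, 5 in an intron and 1 outside the gene, and 24 (77.4%) lay more than 150 bp past the nearest start, a bound chosen after the values were seen. The median was 327 bp past the start. Among the 7876 such peaks of protein-coding genes 38.7% lay that far downstream, with a median of 51 bp, and among the 3319 peaks of protein-coding genes no longer than 4500 bp, the longest subunit gene, 50.3% did, with a median of 152 bp. The shorter genes thus lay between all protein-coding genes and the subunits, and an effect of gene length was not tested. By library, the median for the subunits was 279 and 382.5 bp in mock cells and 186 and 349 bp in siAGO2 cells, and that for the short genes 206, 160, 38 and 122 bp. The medians of the subunits lay farther downstream in each of the 4 libraries, though siAGO2 replicate 1 had 3 such peaks. The share more than 150 bp past the start did not follow in every library, being 3 of 5 peaks (60%) in mock replicate 1 against 61.9% for the short genes, and 87.5% against 52.0%, 66.7% against 31.0% and 71.4% against 43.5% in mock replicate 2 and siAGO2 replicates 1 and 2. Without mock replicate 2 it was 10 of 15 (66.7%) over the other libraries, against 49.2% for the short genes. The nearest-start rule also leaves out summits nearer to an upstream neighbour. A divergent start lay within 1 kb of 62.5% of the subunits and 34.0% of protein-coding genes, and its effect on these positions was not tested. With neighbours' peaks included, the subunit median in mock replicate 1 was −77 bp, against −25 bp for protein-coding genes. In the other libraries it was 352.5, 186 and 335.5 bp against −29, −57 and −48 bp. No test was made on these values, since peaks of 1 library are not replicates.

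**Figure D5:**
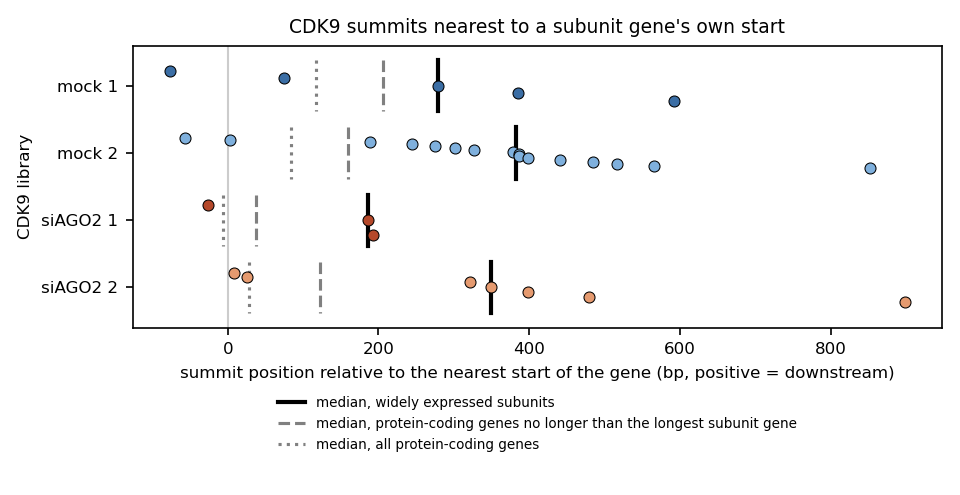
Position of each CDK9 summit nearest to the start of a widely expressed subunit gene (points; bp from the nearest start, horizontal axis) in each library, with the median of the points (solid line) and the medians of protein-coding genes no longer than the longest subunit gene (dashed) and of all protein-coding genes (dotted). The solid line lies to the right of both others in every library, at 279, 382.5, 186 and 349 bp.

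Whether the position of the summits differed between the groups could not be settled with 2 against 2 libraries. Over all summits within 1500 bp of a start of a widely expressed subunit, neighbours' peaks included, the median was −77 and 352.5 bp in mock cells and 186 and 335.5 bp in siAGO2 cells. The siAGO2 mean lay 123 bp farther downstream (exact permutation test, two-sided, p = 1), with the siAGO2 values inside the range of the mock values, and the smallest p this test can give is 0.333. Without mock replicate 1 the difference turned to −91.75 bp.

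Other genes of the ubiquitin and proteasome pathway were read from a fixed list of 21, of which 20 were found in the annotation under the listed symbol. Of these, 9, 11, 5 and 8 had a peak in the 4 libraries in the order above (45.0%, 55.0%, 25.0% and 40.0%, against 21.0%, 26.1%, 11.8% and 16.6% of protein-coding genes), 5 had it in all 4 (Ubqn, rngo, cnc, Uba1 and Ubi-p63E) and 8 in none (PI31, REG, Sem1, Usp14, Uch-L5, Rad23, TER94 and ntc). These shares are by the wider rule, and shares by the nearest start are not given for this list. The peaks of Ubqn, Ubi-p63E, maf-S and Npl4 were all nearer, or as near, to a neighbour's start. cnc, which encodes the activator of proteasome genes, ranked far higher than the subunits, at percentiles 91.5 and 95.3 in the mock and 75.1 and 87.3 in the siAGO2 lists. Its partner maf-S had a peak in mock replicate 2, and its inhibitor Keap1 in all but siAGO2 replicate 1. Pomp, the chaperone that assembles the inner ring, had its peak 286, 319 and 332 bp past the start in both mock replicates and siAGO2 replicate 2. Uba1, which encodes the enzyme that activates ubiquitin, carried its summit 561, 630, 402 and 291 bp past the start.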

How the data were processed

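CDK9 ChIP-seq was done in Kc167 cells in 4 libraries (2 mock and 2 siAGO2), each with an input. The authors trimmed single-end 50 bp reads with cutadapt (1.10 per the labels), mapped them to dm6 with Bowtie2, filtered them on mapping quality (samtools) and for duplicates (Picard 2.11.0), and called peaks with MACS2 (2.1.1.20160309) on each replicate. MACS2 settings for CDK9 are not given in the sources used here. The call on pooled replicates was left out, and input reads act only by way of the background in each list.

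In each deposited list the ratio of summit reads to background is given as a fold, the significance as −log10 of a p-value and of a q-value, and a score that is derived from the latter. The last deposited column gives the summit position. Reads and background at a summit were recovered as the pair that gives the deposited fold (pseudocount of 1 on each side) and, within 0.0005, the −log10 p expected from a Poisson distribution. This succeeded for 100% of peaks, and for 0.355% to 0.605% when p-values were shuffled. Read totals were not used, so the lowest background, which also depends on the fragment extension, genome size and input scaling set in MACS2, stands for depth. Percentiles are ranks of −log10 q within a list, since folds of lists that differ in depth are not on a common scale.

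Gene models were those of Ensembl release 115 on dm6, without transposable elements, with 23694 starts, and promoters were read from the RefSeq assembly of the same build. Distances are signed with the strand of the gene and count from its nearest annotated start unless stated otherwise. Overlap of 1 bp sufficed, and peaks were merged across lists by the same rule. Counts per library were compared with a two-sided exact permutation test over libraries, and ranks with limma (3.58.1, R 4.3.3) with Benjamini-Hochberg adjustment, tested on simulated data. Python 3.11.15, pandas 2.3.3 and scipy 1.17.1 were used. The members and lists were chosen with earlier results of these data known. Members with a peak in all 4 libraries, in both libraries of 1 group and neither of the other, and paralogs with a peak are named with values in every library that called them, and other members named with values were added after these were seen. Alternatives were the window, the summit rule, stricter lists, lists of equal length, leaving out each library, and the replicate number as a block.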

Additional observations from a re-analysis of the deposited data

How the results depend on the processing

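The ratio of widely expressed subunits with a peak (0.379) stayed below 1 under every alternative tried, between 0.207 and 0.80, and no test of it could pass the threshold. The ratio for all protein-coding genes was also below 1, from 0.501 to 0.959, in each of these but the replicate block, where it was not taken. The mean share of widely expressed subunits was 31.25%, against 18.88% of protein-coding genes. It ran from 14.06% to 38.54%, which is less than the spread between libraries from the main value. The lowest share, 14.06%, stood against 12.48% of protein-coding genes with lists of equal length. It stood against 10.21% with peaks above the median −log10 q. The excess over protein-coding genes was thus much smaller under these settings. The paralog share (4.688%) was 0% with gene bodies only and with the nearest start only, and 1.562% both with peaks above the median −log10 q and with lists of equal length. The count of members called in both mock libraries only (4) was 2 with peaks above the median and 0 with lists of equal length, and ran from 4 to 14 when each library was left out in turn. The count called in both siAGO2 libraries only (1) was 2 with lists of equal length and ran from 1 to 2 when each library was left out. Leaving out a library makes either pattern easier to meet for any gene. The shares of protein-coding genes with these patterns under the same settings are not given. The difference in median summit distance (123 bp) was reversed at −63.25 bp when only summits nearest to the gene's own start were used, an alternative chosen after seeing the data, and ran from −91.75 to 337.8 bp when each library was left out. The difference at Rpn6 (−0.183) was reversed on plain percentiles, at 8.268 percentile points, and without siAGO2 replicate 1, at 0.956, and ran from −1.322 to 0.956 over the libraries left out. The share of summits more than 150 bp past the own start (77.42%) ran from 66.67% to 80.77% over the libraries left out, an alternative chosen after seeing the data. The cause of these shifts was not tested.

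Over the 1022 regions called in all 4 lists, rank deviations of same-numbered libraries correlated at r = 0.00101. Ranks within a list cannot show differences in list length. Replicate 2 held more peaks than replicate 1 in both groups (3804 against 3103 and 2295 against 1707). It also held more subunits with a peak (20 against 9 and 8 against 3). Whether replicate numbers mark a shared batch was not tested. With the replicate number as a block, the ratio was 0.365 (exact sign-flip permutation, p = 0.5), limma called 2 of 1022 regions, neither at a member, and the Rpn6 difference stayed at −0.183 (adjusted p = 0.984).

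The limits are 2 libraries per group, siAGO2 libraries with a lower background than both mock libraries, which points to less depth if MACS2 settings were the same, and 10 to 24 reads at a summit. Depth and AGO2 depletion cannot be told apart in a count of called genes. Mock replicate 2, the longest list, alone gave 10 of the 24 subunits with a peak, and the matching share of protein-coding genes is not given.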
